A study of Mus musculus with 27 samples.

Results

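Mouse chromosome 16, from its first probe to 94.7 Mb on build mm8, was split into alternating stretches of lost, middle-level and gained DNA in 6 medulloblastomas. The stretches had the same order in 3 tumours resistant to the drug NVP-LDE225 and in 3 vehicle-treated tumours. The region was chosen for that pattern in these same arrays, so the pattern is described here and not tested. It takes in every non-control spot placed on chromosome 16 up to 94.7 Mb, which is 8600 of the 238202 non-control spots of an array. Values on all 6 arrays were present for 8497 probes here, out of 233011 probes over the genome.

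DNA of 6 allografted tumours was hybridised to two-colour Agilent mouse CGH oligonucleotide arrays, with 1 tumour on each. The resistant tumours came from mice dosed with NVP-LDE225, an antagonist of the Hedgehog pathway protein Smoothened, for 26 days in 2 doses a day. The daily dose was 40 mg/kg for the tumour called R40 here, 80 mg/kg for R80 and 160 mg/kg for R160. The vehicle tumours V1, V2 and V3 came from mice given vehicle for 26 days. All 6 tumours were medulloblastomas of genotype Ptch+/-p53-/-, grown in nude mice from tumours of a transgenic mouse, and each was set against the same sample of wild-type liver DNA. The labels do not say whether the grafts descended from 1 primary tumour, nor give the age of the mice. A graft also holds cells of the host, and their share was not measured. The labels of R160 conflict: its title and source name read vehicle, while its status, treatment and dose read resistant, NVP-LDE225 and 160 mg/kg/day, and it was grouped by the last 3. There was 1 tumour at each dose, so dose and tumour cannot be told apart.

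On a CGH array, tumour DNA and normal DNA compete for each probe, and the log2 ratio of their signals follows the relative copy number. In a pure diploid tumour, loss of 1 of 2 copies gives a log2 ratio of -1 and gain of 1 copy gives 0.58. Admixed normal cells, or a change present in only some tumour cells, bring both values closer to 0. Medulloblastoma of the Hedgehog type arises from granule neuron precursors of the cerebellum, in which Ptch1 restrains Smoothened, and loss of p53 in such tumours is known to go with unstable chromosomes.

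The arrays hold no probe sequences, and no genome of build mm8 was used here, so the sequences shown are of RefSeq genes placed among the array's genes by their order on assembly GRCm38.p6. Of 47 mature miRNAs of chromosome 16 in that table, 40 lay between genes of a single stretch. There were 12 in lost, 27 in middle-level and 1 in gained stretches. Of the 501 genes with probes in the region, 25.1% were lost, 58.3% middle and 15.8% gained, and the miRNA counts were not tested against these shares. The other miRNAs had a host or neighbouring gene that reached into another stretch, and were left out of these counts. They include miR-691 inside Robo2, a gained gene, and miR-6540-3p inside Gap43, a lost gene. The following are shown because they are the more widely studied miRNAs placed in lost stretches. With them are the only one that this rule placed in a gained stretch and a miRNA of the middle level that shares its seed. Capitals mark the seed, bases 2 to 8.
miR-193b-3p, lost: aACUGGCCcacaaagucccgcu
miR-365-3p, lost: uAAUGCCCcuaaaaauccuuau
miR-28a-5p, lost: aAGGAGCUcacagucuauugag
miR-28a-3p, lost: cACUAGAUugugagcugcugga
miR-6367, gained: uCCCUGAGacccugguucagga
miR-125b-5p, middle level: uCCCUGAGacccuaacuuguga

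The genes of miR-193b and miR-365-1 lie between Mrtfb and Parn in the first lost stretch. The gene of miR-28a lies inside Lpp in the second lost stretch. The 13 mature miRNAs placed in lost and gained stretches had 13 different seeds. The seed of miR-6367, between the interferon receptor genes Ifnar1 and Ifngr2, was also that of miR-125b-5p, in a middle-level stretch. No miRNA level was measured, so these are positions and not results on expression.

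Promoters are shown for Robo1 and Lsamp, since steps in copy number fell inside both genes. Each runs from 250 bases before to 50 bases after a transcription start, with the 50 transcribed bases in capitals, on the plus strand of chromosome 16. Their coordinates are of GRCm38.p6 and cannot be set against the mm8 positions of the probes. Lsamp has 2 starts in the table.
Robo1, chr16:72662899-72663198: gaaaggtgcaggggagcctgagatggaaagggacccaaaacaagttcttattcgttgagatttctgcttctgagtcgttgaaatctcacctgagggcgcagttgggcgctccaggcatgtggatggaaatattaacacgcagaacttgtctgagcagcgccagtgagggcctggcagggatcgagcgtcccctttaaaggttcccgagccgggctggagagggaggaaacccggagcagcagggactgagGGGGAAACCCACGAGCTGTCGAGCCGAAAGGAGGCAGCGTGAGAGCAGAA
Lsamp, first start, chr16:39984114-39984413: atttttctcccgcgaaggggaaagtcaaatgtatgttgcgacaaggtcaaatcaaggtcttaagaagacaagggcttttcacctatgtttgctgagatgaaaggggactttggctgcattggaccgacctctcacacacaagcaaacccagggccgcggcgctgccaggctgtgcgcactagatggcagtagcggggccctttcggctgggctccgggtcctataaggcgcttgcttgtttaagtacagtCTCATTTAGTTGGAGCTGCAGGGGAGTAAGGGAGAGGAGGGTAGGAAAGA
Lsamp, second start, chr16:41532576-41532875: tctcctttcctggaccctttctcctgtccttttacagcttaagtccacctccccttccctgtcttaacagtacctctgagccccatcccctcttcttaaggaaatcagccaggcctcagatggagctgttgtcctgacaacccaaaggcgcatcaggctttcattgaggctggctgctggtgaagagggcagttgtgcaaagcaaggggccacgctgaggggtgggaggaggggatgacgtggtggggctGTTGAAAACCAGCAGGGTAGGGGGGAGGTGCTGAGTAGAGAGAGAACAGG

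In all 6 arrays, 99.9% or more of the chromosome 16 probes were well above background. The spread of neighbouring probes was wider in the resistant arrays, at 0.33 in R40, 0.29 in R80 and 0.47 in R160, against 0.15 in V1, 0.21 in V2 and 0.19 in V3 (SD, log2 scale). Smaller steps could therefore be seen in the vehicle arrays. The 3 probes named Trp53 averaged 0.02 in R40, 0.03 in R80 and -0.04 in R160, against 0.25 in V1, 0.10 in V2 and 0.20 in V3. The 7 probes named Ptch1 averaged 0.05 in R40, 0.07 in R80 and 0.03 in R160, against 0.08, 0.10 and 0.06 in V1, V2 and V3. No probe of either gene was below -0.5 in all tumours. Where they lie relative to the targeted parts of the genes is not given, so they do not check the genotype. At the distal end of the region, the last 20 probes averaged 0.09 in R40, 0.31 in R80 and 0.25 in R160, against 0.10, 0.17 and 0.12 in V1, V2 and V3. The first 20 probes beyond it averaged 0.80 in R40, 0.36 in R80 and 0.42 in R160, against 0.12, 0.13 and 0.15 in V1, V2 and V3, so the end of the region coincides with the start of a gain in R40.

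The mean of the 3 vehicle tumours was cut into blocks of constant log2 ratio, and the blocks fell into 3 levels. The levels averaged -0.88, 0.03 and 0.62, with an SD of 0.08 between blocks of a level, and are called lost, middle and gained. The gaps between levels were wide: the highest lost block was at -0.71 and the lowest middle block at -0.13, and the highest middle block was at 0.16 and the lowest gained block at 0.41. Joining neighbouring blocks of the same level left 23 runs, 4 of them lost, 12 middle and 7 gained. Lost runs covered 22.1 Mb and 2275 probes, middle runs 55.3 Mb and 4867 probes, and gained runs 13.7 Mb and 1355 probes. None of the 22 borders led straight from lost to gained. The runs were between 0.111 and 13.0 Mb long, with a median of 2.31 Mb.

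**Figure D1:**
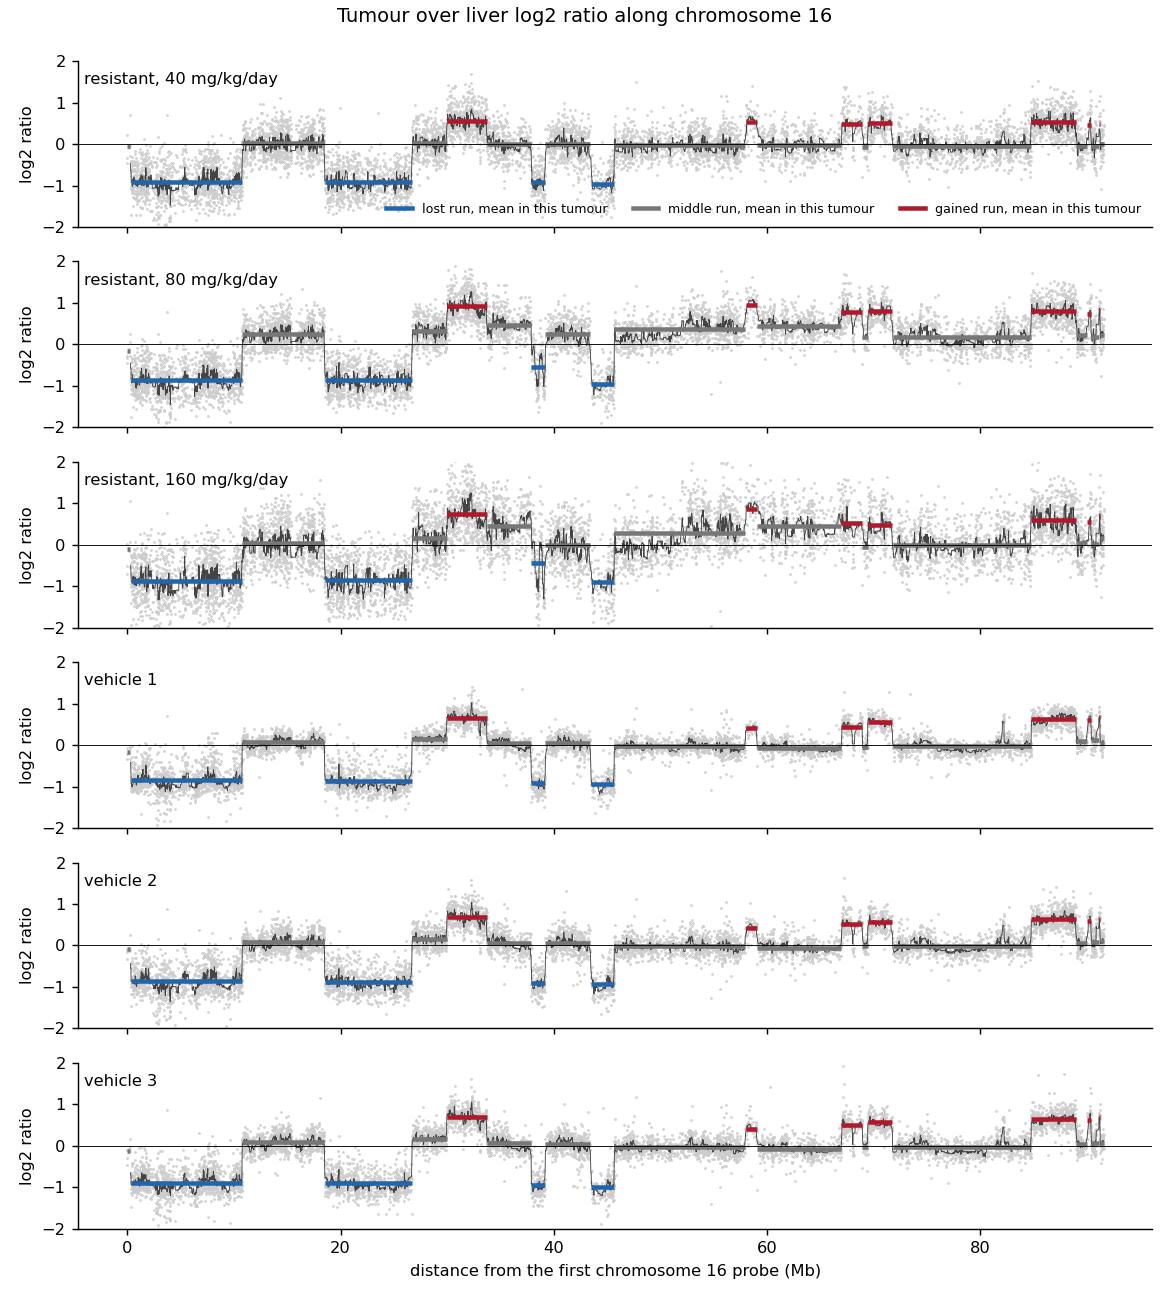
Log2 ratio of tumour over liver DNA (vertical axis) against the distance from the first chromosome 16 probe in Mb (horizontal axis), with resistant tumours in the upper 3 panels and vehicle tumours in the lower 3. Grey points are probes, the thin line is the running median of 15 probes, and thick lines are the mean of each run in that tumour, blue for lost, grey for middle and red for gained. Points beyond 2 in size are not drawn. The same 4 lost and 7 gained runs appear in all 6 panels.

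Losses lay in the proximal part of the chromosome. The first lost run, from 3.47 to 13.92 Mb, averaged -0.91 in R40, -0.86 in R80 and -0.86 in R160, against -0.83 in V1, -0.85 in V2 and -0.89 in V3. It holds Crebbp, a histone acetyltransferase and co-activator, Grin2a, a subunit of the NMDA receptor, Socs1, an inhibitor of JAK and STAT signalling, and Ercc4, an endonuclease of nucleotide excision repair. The second, from 21.66 to 29.83 Mb, averaged -0.91 in R40, -0.86 in R80 and -0.85 in R160, against -0.88 in V1, -0.87 in V2 and -0.90 in V3. It holds Bcl6 and Trp63, both transcription factors, Rfc4, a subunit of the clamp loader of DNA replication, and Igf2bp2, which binds mRNA. In these 2 runs the 6 tumours lay within 0.1 of each other.

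The other 2 lost runs were shorter. The run from 41.03 to 42.34 Mb holds Lsamp, a neuronal adhesion protein of the IgLON family, and Gap43, a protein of growing axons. It averaged -0.90 in R40, -0.54 in R80 and -0.43 in R160, against -0.90 in V1, -0.91 in V2 and -0.95 in V3, so R80 and R160 stood apart from the other tumours there. The run from 46.62 to 48.81 Mb averaged -0.95 in R40, -0.94 in R80 and -0.90 in R160, against -0.94 in V1, -0.92 in V2 and -0.998 in V3.

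Gains lay from 33 Mb on. The first gained run, from 33.11 to 36.85 Mb, averaged 0.56 in R40, 0.92 in R80 and 0.75 in R160, against 0.66 in V1, 0.68 in V2 and 0.69 in V3. Its proximal 2.97 Mb were the highest block of at least 20 probes in vehicle tumours, at 0.71 ± 0.02 (SD, n = 3), against 0.78 ± 0.19 in resistant tumours. The genes with most probes there were Mylk, the myosin light chain kinase, Adcy5, an adenylyl cyclase, Slc12a8, a member of the cation chloride cotransporter family, and Zfp148, a zinc finger factor. The gained run from 87.90 to 92.11 Mb was the largest, and averaged 0.53 in R40, 0.82 in R80 and 0.59 in R160, against 0.63 in V1, 0.63 in V2 and 0.64 in V3. It holds Tiam1, an exchange factor of the GTPase Rac, Itsn1, a scaffold of endocytosis, the kinase gene Hunk, and Olig1 and Olig2, transcription factors of the oligodendrocyte lineage.

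The remaining gained runs were smaller. The run from 61.12 to 62.17 Mb, where the nearest named genes are Epha6 and Nsun3, averaged 0.54 in R40, 0.95 in R80 and 0.87 in R160, against 0.40, 0.43 and 0.41 in V1, V2 and V3. It was the lowest gained run of the vehicle tumours and the highest of R80 and R160. The runs from 70.11 to 72.07 Mb and from 72.57 to 74.88 Mb, with Gbe1, the glycogen branching enzyme, in the first and the axon guidance receptors Robo1 and Robo2 in the second, lay between 0.48 and 0.80 in resistant tumours and between 0.45 and 0.57 in vehicle tumours. The 2 most distal gained runs were 0.365 and 0.111 Mb long. The first of them holds Setd4 and the second lies mostly in Hlcs, the ligase that attaches biotin to carboxylases.

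**Figure D2:**
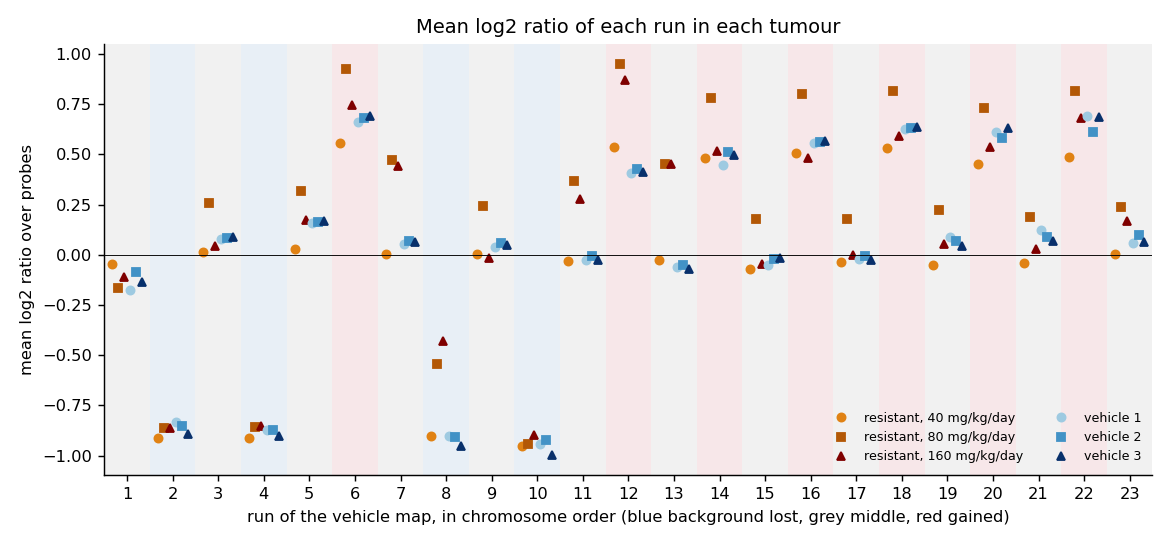
Mean log2 ratio over the probes of each run (vertical axis) for the 23 runs in chromosome order (horizontal axis), with 1 point per tumour, resistant tumours to the left of vehicle tumours within each run. All 11 lost and gained runs have the same sign in the 6 tumours, and R80 lies above the vehicle points in 20 runs.

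The 11 lost and gained runs had the same sign in all 6 tumours. The smallest of them in size averaged 0.45 in R40, 0.54 in R80 and 0.43 in R160, against 0.40 in V1, 0.43 in V2 and 0.41 in V3. The spread between vehicle tumours within a run was small, with a median range of 0.03 and a largest range of 0.09. Against that range R40 lay below it in 17 of 23 runs and above it in 3, R80 lay above it in 20 runs and below it in 0, and R160 lay above it in 12 and below it in 6. In 2 of 23 runs, from 61.12 to 62.17 Mb and from 62.19 to 70.10 Mb, all 3 resistant tumours lay above the vehicle range. In the second of these R40 was at -0.03, against -0.05 in V2. Groups of 3 and 3 separate fully, in either direction, in a share of 0.1 of all splits, and the count was near that share. It was not made for other chromosomes and is not read as a difference between the groups. The correlation of the 23 run means between arrays was between 0.948 and 0.985 among resistant tumours, between 0.928 and 0.993 between a resistant and a vehicle tumour, and 0.998 or more among vehicle tumours. These arrays share the liver sample and the probes.

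Of the 22 borders, 18 were located to a gap of under 25 kb between neighbouring probes, and the median gap was 12.6 kb. Each border was refitted in each array by itself. Within 10 probes of the vehicle border, a step of the same sign was found for 22 of 22 borders in R40, 22 in R80 and 20 in R160, against 22 in each vehicle array, from whose mean the borders came. The step fell on exactly the same pair of probes for 17 borders in R40, 20 in R80 and 7 in R160, against 19, 20 and 22 in V1, V2 and V3. The 2 borders missed in R160 were those at 41.03 Mb, 26 probes away, and at 70.11 Mb, 24 probes away.

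A border fell inside 4 named genes, which is 18.2% of borders, where 42.6% of all gaps between neighbouring probes lay inside a named gene. Robo1 codes for a receptor of Slit proteins, and its border lay between 72569417 and 72573681. Its 3 probes left of the border averaged -0.27 in R40, 0.03 in R80 and -0.36 in R160, against 0.05 in V1, -0.01 in V2 and -0.06 in V3. Its 52 probes right of the border averaged 0.49 in R40, 0.82 in R80 and 0.47 in R160, against 0.60 in V1, 0.58 in V2 and 0.61 in V3. Most of the labelled part of Robo1, whose promoter is shown above, was thus at the gained level.

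Grik1, a subunit of kainate receptors, had its border between 87895657 and 87902299. Its 17 probes on the left averaged -0.03 in R40, 0.13 in R80 and 0.06 in R160, against -0.05 in V1, 0.03 in V2 and -0.02 in V3. Its 37 probes on the right averaged 0.59 in R40, 0.87 in R80 and 0.65 in R160, against 0.60 in V1, 0.62 in V2 and 0.61 in V3. The gene was therefore split between the middle and the gained level in every tumour.

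Hlcs had 15 probes at the gained level, at 0.45 in R40, 0.81 in R80 and 0.63 in R160, against 0.70, 0.60 and 0.69 in V1, V2 and V3. Its other 6 probes averaged 0.01 in R40, 0.29 in R80 and 0.27 in R160, against 0.07, 0.08 and 0.05 in V1, V2 and V3. The fourth split gene, Bmerb1, had 4 probes in the first lost run, at -0.79 in R40, -0.68 in R80 and -0.57 in R160, against -0.84, -0.72 and -0.80 in V1, V2 and V3. Its other 14 probes were at the middle level, between -0.20 and 0.08 in the resistant tumours and between -0.03 and 0.02 in the vehicle tumours. In 4 more borders both probes carried the name of 1 cDNA that matched no RefSeq symbol: AK210172, AK164171, BC020078 and BC096643.

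Most of the other borders lay between genes. Hcls1, which codes for a signalling adaptor of blood cells, begins the middle run after the first gain, and Osbpl11, a lipid-binding protein gene, begins that gain. Sim2, a transcription factor gene, ends at the middle level next to the gain in Hlcs. The Hcls1 probes averaged 0.20 in R40, 0.44 in R80 and 0.28 in R160, against 0.16, 0.23 and 0.17 in V1, V2 and V3. The Osbpl11 probes averaged 0.53 in R40, 0.80 in R80 and 0.57 in R160, against 0.67, 0.67 and 0.71 in V1, V2 and V3.

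Of 501 genes with probes in the region, 126 lay at the lost level, 292 at the middle level, 79 at the gained level and 4 across 2 levels. The lists that follow were drawn up with earlier results of these data known, and their counts are descriptions. Of 5 interferon and cytokine receptor genes, 4 were gained and 1 was lost. The gained ones, Ifnar1, Ifnar2, Ifngr2 and Il10rb, lie side by side and are 1 stretch of DNA, not 4 events. Ifnar2, a chain of the type I interferon receptor, averaged 0.43 in R40, 0.70 in R80 and 0.44 in R160, against 0.71, 0.63 and 0.65 in V1, V2 and V3. Il1rap, the accessory chain of the interleukin 1 receptor, averaged -0.99 in R40, -0.90 in R80 and -0.88 in R160, against -0.97, -0.96 and -0.996 in V1, V2 and V3.

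Of 9 genes with probes in a list drawn up for DNA replication and repair, 2 were lost and 7 were at the middle level. The middle ones include Dgcr8, a protein of microRNA processing, and Ranbp1, which binds the GTPase Ran, and neither is a replication or repair gene. The lost ones were Ercc4 and Rfc4, and Rfc4 averaged -1.08 in R40, -0.997 in R80 and -1.17 in R160, against -1.10, -1.09 and -1.10 in V1, V2 and V3. Prkdc, the catalytic subunit of the DNA-dependent protein kinase, averaged 0.09 in R40, 0.32 in R80 and 0.17 in R160, against 0.02, 0.10 and 0.05 in V1, V2 and V3. Polq, a polymerase of end joining, was also at the middle level, with 0.19 in R40, 0.39 in R80 and 0.28 in R160, against 0.09, 0.15 and 0.15 in V1, V2 and V3.

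Of 15 transcription factor and co-activator genes, 6 were lost, 7 middle and 2 gained. The lost ones were Crebbp, Bcl6, Trp63, Etv5, Glis2 and Tfap4. Crebbp averaged -0.92 in R40, -0.84 in R80 and -0.85 in R160, against -0.87, -0.89 and -0.88 in V1, V2 and V3. The gained ones were Olig1 and Olig2, with 1 probe each. Runx1, a factor of blood cell development, lay in a middle run between 2 gains and averaged -0.13 in R40, 0.14 in R80 and -0.10 in R160, against 0.07, -0.03 and 0.01 in V1, V2 and V3.

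Of 15 genes in a list drawn up for kinases, adaptors and inhibitors of signalling, 4 were lost, 9 middle and 2 gained. The lost ones were Socs1, Adcy9, Map3k13 and Igf2bp2, and the gained ones were Tiam1 and Hunk. The list is loose: Igf2bp2 codes for an mRNA-binding protein, Adcy9 for an adenylyl cyclase and Tiam1 for an exchange factor, which are none of these classes. Tiam1 averaged 0.50 in R40, 0.81 in R80 and 0.55 in R160, against 0.63, 0.64 and 0.68 in V1, V2 and V3. Of 15 genes of neuronal adhesion, guidance and channels, 4 were lost, 8 middle, 1 gained and 2, Robo1 and Grik1, crossed a border. The lost ones were Lsamp, Gap43, Grin2a and Fgf12, a modulator of sodium channels. Grin2a averaged -0.98 in R40, -0.95 in R80 and -0.95 in R160, against -0.92, -0.96 and -0.97 in V1, V2 and V3.

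The lowest stretch of the chromosome was inside Rbfox1, named A2bp1 on the array, which codes for a neuronal splicing regulator. Its 207 probes averaged -1.08 in R40, -1.05 in R80 and -1.05 in R160, against -1.04 in V1, -1.05 in V2 and -1.11 in V3. The 3 lowest blocks of at least 20 probes all held it, at -1.06, -1.02 and -1.01 on average in vehicle tumours. Within it were 2 pieces of 5 probes each that read lower still in every tumour. The piece from 6527462 to 6547501 averaged -1.98 in R40, -1.94 in R80 and -2.14 in R160, against -1.77 in V1, -1.67 in V2 and -2.12 in V3. The piece from 6924135 to 6961546 averaged -1.95 in R40, -1.94 in R80 and -1.95 in R160, against -1.80 in V1, -1.86 in V2 and -1.89 in V3.

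These averages rested on few probes. In the first piece 2 of the 5 probes were between -3.09 and -3.88 in the resistant tumours and between -2.76 and -4.38 in the vehicle tumours, and the other 3 lay closer to the rest of the gene. In the second piece 1 probe, starting at 6935435, read -4.93 in R40, -4.92 in R80 and -4.87 in R160, against -4.86, -5.07 and -5.17 in V1, V2 and V3. In that second piece the median liver signal itself was higher than at 40 neighbouring probes, by 0.98 to 1.06 on the resistant arrays and by 0.93 to 0.96 on the vehicle arrays. The median tumour signal there was not lower than at these neighbours. It was higher by 0.14 to 0.29 on the resistant arrays and by 0.18 to 0.30 on the vehicle arrays. These medians hide the probe starting at 6935435, whose tumour signal was far below that of every other probe of the piece. It was -3.76 in R40, -3.70 in R80 and -3.52 in R160, against -3.77, -3.90 and -3.90 in V1, V2 and V3. In the first piece the median tumour signal differed from its neighbours by -0.67 to -0.65 on the resistant arrays and by -0.81 to -0.51 on the vehicle arrays.

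To find steps that the vehicle tumours lack, 1 vehicle array was subtracted from each resistant array, with no vehicle array used for more than 1 of them. This comparison was added after the data were seen. R40 minus V3 gave a single segment over the whole region, at -0.04. The 3 differences between vehicle arrays also gave 1 segment each, at -0.01, 0.02 and -0.01. R80 minus V1 and R160 minus V2 gave 10 segments each. R40 minus V3 thus gave no further step that this segmentation keeps. It merges neighbours under 0.15 apart and also drops steps that its penalty outweighs. Between 39995776 and 40010624, where R160 minus V2 stepped by 0.40, R40 minus V3 stepped by 0.19 and R80 minus V1 by 0.24. Small or short differences of R40 from the vehicle tumours would not be seen this way. R80 and R160 had further steps. Of the R80 minus V1 borders, those at 14.01, 21.77 and 29.90 Mb lay near vehicle borders at 13.92, 21.64 and 29.83 Mb. Not all borders of R80 were therefore steps at new places.

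**Figure D3:**
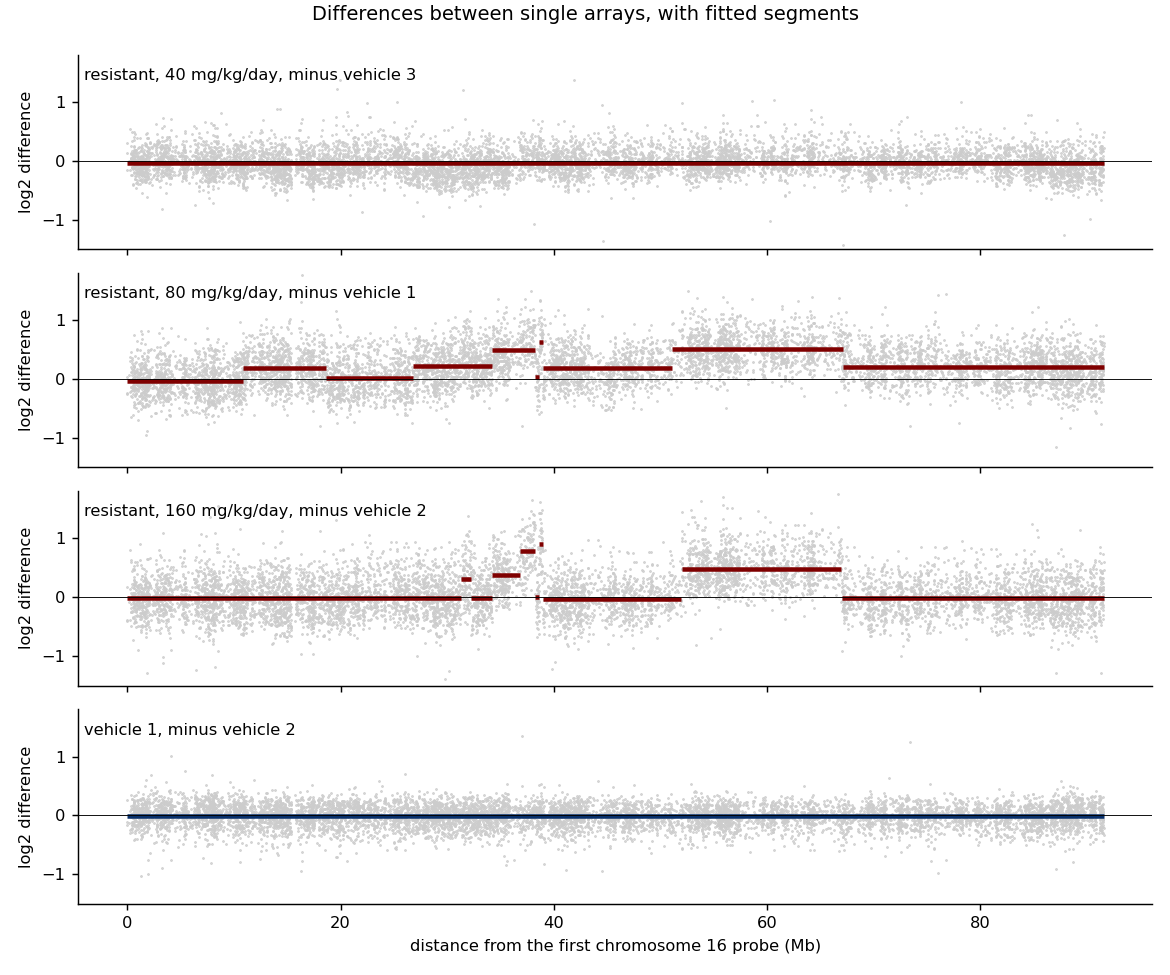
Difference in log2 ratio between pairs of arrays (vertical axis) against the distance from the first chromosome 16 probe in Mb (horizontal axis). Grey points are probes and thick lines are fitted segments. R40 minus V3 and V1 minus V2 show 1 flat segment each, and R80 minus V1 and R160 minus V2 show 10 segments each, with raised stretches at about the same distances.

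In R160 minus V2 there were 5 raised segments. With V3 subtracted instead there were 4, since the stretch from 34.47 to 35.42 Mb was then part of a flat segment at 0.02. The largest was 14.98 Mb long, from 55.13 to 70.11 Mb, with 1162 probes and 52 named genes. It averaged -0.01 in R40, 0.48 in R80 and 0.48 in R160, against -0.03 in V1, -0.01 in V2 and -0.03 in V3. Epha6 and Epha3, receptors for ephrins, lie in it. Epha6 averaged -0.07 in R40, 0.43 in R80 and 0.42 in R160, against -0.10, -0.07 and -0.08 in V1, V2 and V3. Epha3 averaged 0.02 in R40, 0.50 in R80 and 0.49 in R160, against -0.04, -0.01 and -0.05 in V1, V2 and V3. Cadm2, a synaptic adhesion molecule, averaged -0.03 in R40, 0.42 in R80 and 0.42 in R160, against -0.10, -0.09 and -0.12 in V1, V2 and V3. In R80 and R160 these genes lay between the middle and the gained level of the vehicle tumours, and in R40 they lay at the middle level.

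The gained run from 61.12 to 62.17 Mb lies within this segment. Its step above the flanks was met in all 6 tumours, and R80 and R160 carried it on top of the raised flanks. The distal end of the segment in R160, between 70111213 and 70121762, was 1 probe from the vehicle border where the next gained run begins. The refitted step there was 0.51 in R40 and 0.34 in R80, against 0.56 in V1, 0.59 in V2 and 0.60 in V3. In R160 the refitted step was 0.11, 24 probes away, and the runs on the 2 sides of the border averaged 0.45 and 0.52.

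A second segment, from 37.39 to 40.00 Mb with 241 probes, averaged -0.02 in R40, 0.50 in R80 and 0.47 in R160, against 0.09 in each of V1, V2 and V3. Gsk3b, a kinase of Wnt and Hedgehog signalling, is one of its 21 named genes, with 0.02 in R40, 0.51 in R80 and 0.45 in R160, against 0.16, 0.12 and 0.11 in V1, V2 and V3. The segment from 34.47 to 35.42 Mb lies in the first gained run. R160 minus V3 and R80 minus V1 did not set it apart. R80 minus V2 gave a segment from 34.39 to 35.42 Mb, at 0.38 against 0.16 and 0.19 on its flanks. The segment of R160 minus V2 averaged 0.58 in R40, 1.07 in R80 and 1.00 in R160, against 0.66, 0.69 and 0.69 in V1, V2 and V3. Mylk and Adcy5 lie in it, and Adcy5 averaged 0.58 in R40, 1.08 in R80 and 1.00 in R160, against 0.73, 0.71 and 0.72 in V1, V2 and V3. Both tumours thus went beyond the gained level there.

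The last 2 raised segments cut into the lost run that holds Lsamp. The segment from 40.01 to 41.39 Mb crosses the vehicle border at 41.03 Mb. Its 76 probes on the middle side averaged 0.03 in R40, 0.55 in R80 and 0.66 in R160, against -0.04 on average in vehicle tumours. Its 36 probes on the lost side averaged -0.88 in R40, -0.22 in R80 and 0.05 in R160, against -0.89 in V1, -0.92 in V2 and -0.96 in V3. On both sides R160 stood about 1 level above the vehicle tumours.

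The rest of that lost run alternated in R160. From 41404829 to 41792108, the 45 probes averaged -0.93 in R40, -0.86 in R80 and -0.91 in R160, against -0.90 in V1, -0.91 in V2 and -0.97 in V3. From 41797450 to 42092413, the 39 probes averaged -0.86 in R40, -0.26 in R80 and 0.00 in R160, against -0.89 in V1, -0.90 in V2 and -0.94 in V3. From 42112065 to the end of the run, the 21 probes averaged -0.98 in R40, -0.93 in R80 and -1.02 in R160, against -0.95, -0.90 and -0.91 in V1, V2 and V3. R160 therefore held the middle level in 2 of 4 pieces and the lost level in the other 2, and R80 lay between the levels in the same 2 pieces.

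**Figure D4:**
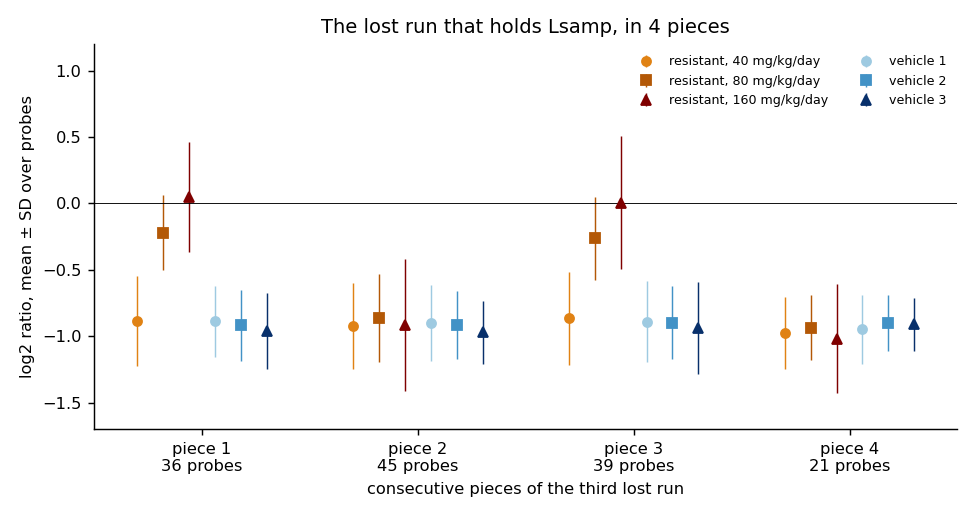
Mean log2 ratio (vertical axis) of 4 consecutive pieces of the lost run from 41.03 to 42.34 Mb (horizontal axis), with 1 point per tumour and resistant tumours to the left of vehicle tumours. Bars are the SD over the probes of a piece. In pieces 1 and 3, R80 averages -0.22 and -0.26 and R160 averages 0.05 and 0.00, while the other tumours lie between -0.96 and -0.86.

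One of these steps falls inside Lsamp. The 44 Lsamp probes left of it averaged -0.93 in R40, -0.87 in R80 and -0.92 in R160, against -0.92 in V1, -0.92 in V2 and -0.98 in V3. The 36 probes right of it averaged -0.83 in R40, -0.23 in R80 and 0.05 in R160, against -0.87 in V1, -0.87 in V2 and -0.91 in V3. Lsamp is on the plus strand, so its labelled 5′ part was lost in all 6 tumours, and its 3′ part was lost in 4 of them, intermediate in R80 and at the middle level in R160. The array names probes as Lsamp from 41494310 on, and probes named for the cDNA AK164171 span 39909617 to 42092413. If that cDNA is a longer form of the gene, the gene would reach across steps on the left as well. The first of its 2 promoters was not placed on mm8 and does not settle this.

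The further steps of R80 and R160 fell at like positions although their differences shared no array. Of 9 borders in each, 4 lay between the same 2 probes, which is 44.4% of each list. The 9 of R80 include the borders near vehicle borders named above, and none of those is among the 4. With the vehicle arrays exchanged (R80 minus V2, R160 minus V3), 4 were again the same, 25% of the 16 in R80 and 57.1% of the 7 in R160. The borders between 37354651 and 37390379, between 41394485 and 41404829 and between 42092413 and 42112065 were in both sets of 4. When each of the 9 borders of R160 was refitted in R80 minus V1, 8 landed on the same pair of probes and the other was 4 probes away. The refits in R40 minus V3 landed 10 to 110 probes away, with steps between -0.22 and 0.19. Both differences share the liver sample, which cancels within a difference only as far as the 2 hybridisations were alike.

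Outside the 5 raised segments, R160 differed from the vehicle mean by 0.01 at the lost level, -0.01 at the middle level and -0.03 at the gained level. R40 differed by -0.04, -0.05 and -0.09 at these levels. R80 differed by 0.01 at the lost level, where the 2200 probes averaged -0.87, by 0.18 at the middle level, where 3426 probes averaged 0.23, and by 0.21 at the gained level, where 1198 probes averaged 0.82. By runs, R80 lay above the vehicle range in 11 of 12 middle runs, 7 of 7 gained runs and 2 of 4 lost runs, and the middle run within the vehicle range was the first one of the chromosome. The lost run that holds Lsamp is one of those 2. Segmented by itself it gave 4 levels, at -0.87, 0.22, 0.48 and 0.85. R40 alone gave 3, at -0.91, -0.01 and 0.52, and R160 alone gave 3, at -0.86, 0.03 and 0.53, while the vehicle arrays gave 3 each.

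The amplitude of the pattern, taken as the median of gained minus that of lost probes, was 1.44 in R40, 1.69 in R80 and 1.45 in R160, against 1.502 in V1, 1.496 in V2 and 1.54 in V3. The resistant tumours averaged 1.53 ± 0.14 and the vehicle tumours 1.51 ± 0.02 (SD, n = 3 each), a difference of 0.02 (exact permutation test over tumours, two-sided, p = 1). The step from middle to gained was 0.54 in R40, 0.54 in R80 and 0.44 in R160, against 0.59, 0.58 and 0.60 in V1, V2 and V3. It was lower in 3 of 3 resistant tumours, by 0.08 on average, which gave the smallest p that 3 against 3 allows (exact permutation test, two-sided, p = 0.1, or 0.6 after Benjamini-Hochberg adjustment over 6 such quantities). That step includes the raised middle runs of R80 and R160. Outside the raised segments, R80 exceeded the vehicle mean by 0.18 at the middle level and by 0.21 at the gained level (means over probes). The step of R80 was thus not lower than the vehicle mean there, and the separation of 3 of 3 did not hold. The steps of R40 and R160 were still lower than the vehicle mean. R40 differed by -0.05 at the middle and -0.09 at the gained level, and R160 by -0.01 and -0.03. The levels were defined on the mean of the same vehicle tumours, in a region chosen for its pattern. These p-values are therefore descriptions and not independent tests of a difference between the groups.

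Across the genome, 2548 windows of 1 Mb were compared between the 3 resistant and 3 vehicle tumours with limma, and 101 differed at a Benjamini-Hochberg adjusted p below 0.05, or 3.96% of windows, and 0.275% of windows were higher in resistant tumours. These p-values measure the spread between the tumours on the arrays. In the region, 1 of 92 windows did. It runs from 94000001 to 95000000, past the end of the region, and includes the start of the distal gain of R40. Its mean was 0.38 in R40, 0.35 in R80 and 0.32 in R160, against 0.18 in V1, 0.19 in V2 and 0.18 in V3, a difference of 0.17 ± 0.02 (SE; limma, adjusted p = 0.0179). The resistant values did not overlap the vehicle values in this window, but the window was picked by the test, so this adds no support. Without V1, V2 or V3 in turn, 0 of the 92 windows passed (limma), and 1 did at an unadjusted p below 0.05 each time.

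This test looks for a change common to the 3 resistant tumours, and the raised segments were in 2 of them. Without R40, 23 of the 92 windows passed, all of them higher in R80 and R160, where 5.02% of windows of the genome passed in that direction (limma, adjusted p below 0.05). Of the 23, 20 had their centre in a raised segment, and these were all the windows with their centre there. The segments were found in the same arrays, so this is a description. Without R80, 9 of 92 windows passed in either direction, where 18.6% of the genome's windows did (limma, adjusted p below 0.05). Of the 9, 1 was higher in R40 and R160, where 10.5% of the genome's windows passed in that direction. The count thus depended on which resistant tumours were included.

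Called at 0.3 in size against liver DNA, 1 Mb windows of the region were lost in 24 of 92 in R40, 22 in R80 and 24 in R160, against 23 in each vehicle tumour. The share of windows lost over the whole genome was 8.59% in R40, 11.3% in R80 and 8.75% in R160, against 2.2% in V1, 1.69% in V2 and 2.86% in V3. Windows of the region were gained in 15 of 92 in R40, 40 in R80 and 32 in R160, against 14 in each vehicle tumour. Over the whole genome 7.46% were gained in R40, 10.7% in R80 and 11% in R160, against 6.16% in V1, 6.32% in V2 and 6.28% in V3. The gained share of the region was thus about the same in R40 as in vehicle tumours and higher in R80 and R160.

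The same segmentation was run on the vehicle mean of every other autosome and of chromosome X. Chromosome 16, which was chosen for its pattern, gave 3 levels and was the only one that did. Chromosomes 5 and 17 gave 2 levels with 18 borders each, where called blocks took in 11 gained and 79 lost probes on chromosome 5 and 48 gained and 39 lost probes on chromosome 17. The other chromosomes gave 1 level. On chromosome 16 the called blocks covered 13.7 Mb of gain and 22.0 Mb of loss. Chromosome 6 was gained as a single block.

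The steps lay in the tumour channel. With each channel centred on its own autosomal median, the tumour signal of gained probes exceeded that of lost probes by 1.38 in R40, 1.63 in R80 and 1.42 in R160, against 1.40 in V1, 1.42 in V2 and 1.44 in V3. The liver signal of the same probes differed by -0.09, -0.08 and -0.09 in the resistant arrays, against -0.09, -0.11 and -0.10 in the vehicle arrays. The raised middle level of R80, at 0.28, was likewise in the tumour channel, where it was -0.03 in R40 and 0.14 in R160, against -0.02, 0.00 and 0.00 in V1, V2 and V3.

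**Figure D5:**
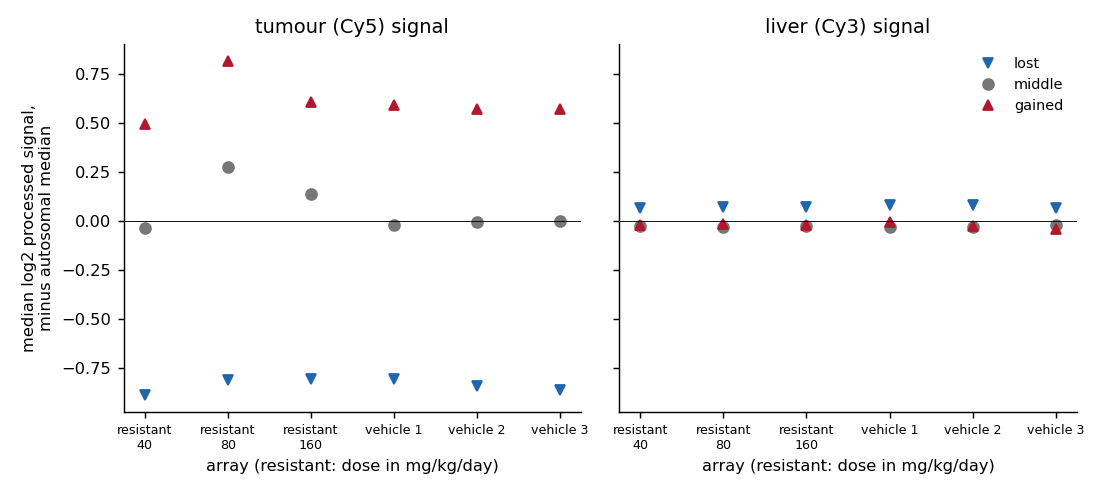
Median log2 processed signal of lost, middle and gained probes, each minus the autosomal median of its channel (vertical axis), for the tumour DNA channel (left panel) and the liver DNA channel (right panel) of the 6 arrays (horizontal axis), resistant arrays to the left of vehicle arrays. The 3 levels separate by 1.38 to 1.63 from lost to gained in the tumour channel and lie within 0.11 of each other in the liver channel.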

How the data were processed

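DNA of 3 resistant and 3 vehicle tumours was measured on 1 array each. The intensities used were the processed signals of both channels, which Feature Extraction 9.5.3.1 had background-subtracted and dye-normalized before deposit, per the file headers, with probe positions of build mm8. Per the labels, Cy5 marked the tumour DNA and Cy3 that of the liver. The authors' deposited value table holds log10 ratios of the same arrays that correlated with the scanner log ratios at 0.9996 or more, uncentred, and served as an alternative.

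Log2 ratios of Cy5 over Cy3 had the median over autosomal probes subtracted array by array. Neither loess nor quantile scaling was applied, and a change common to most of the genome is not seen. Control spots and outlier spots were left out. Blocks came from exact penalised least squares (penalty multiple 3, neighbours under 0.15 apart merged, at least 5 probes), and levels are the fewest with a within-level SD of at most 0.1. Each border was refitted within its 2 neighbouring blocks. For the test between groups, limma 3.58.1 (R 4.3.3) was run on means of 1 Mb windows holding 5 or more probes, with Benjamini-Hochberg adjustment over the genome. Segmentation ran on numba 0.67.0 and numpy 2.4.6, and tables were joined with pandas 2.3.3, all under Python 3.11.15. Segmentation and window test were checked on simulated data.

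Of 801 probe names in the region, 505 matched a RefSeq symbol of chromosome 16 (assembly GRCm38.p6, used for names and gene order). Genes were named where they flank a border, have most probes in the 3 highest and 3 lowest blocks, or belong to the lists given. The members and lists were chosen with earlier results of these data known. The number of arrays limits the precision. Each array had its own slide and scan, so no batch could be blocked. The 21 RNA arrays were not used, because no table here pairs their probe sets with genes, and the RNA comparison planned for these genes was not run.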

Additional observations from a re-analysis of the deposited data

How the results depend on the processing

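The vehicle map had 34 blocks, 21 of them gained or lost, 22 borders and 3 levels. Its border count stayed within 1.5 times in 17 of 18 alternatives and its number of levels was 3 in all of 18 except a within-level SD of at most 0.05, which gave 6 levels, and R80 by itself, which gave 4. A penalty multiple of 1 gave 59 blocks and 43 gained or lost blocks, and a multiple of 6 gave 12 gained or lost blocks. Of the single arrays, V1 had more blocks than the vehicle mean, 41 with 25 gained or lost, and the others had fewer. R40 had 16 blocks, 8 of them gained or lost, R80 had 22 blocks, R160 had 14 blocks with 8 gained or lost and 12 borders, and V2 had 12 gained or lost blocks.

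The difference in amplitude between resistant and vehicle tumours, 0.02, was -0.45 with normexp background correction (exact permutation test, p = 0.4). It lay between -0.067 and 0.0589 with 1 tumour left out in turn, and was -0.067 without R80 (exact permutation test, p = 0.1, the smallest that 2 against 3 allows). The cause was not tested, and the limit given above for the p-values of the amplitude applies here too. The count of 101 windows was 194 with windows of 0.5 Mb, 36 with 2 Mb, 46 with array weights, 163 with a mean-variance trend and 0 with normexp (limma, where 653 windows had an unadjusted p below 0.05), and 32 to 474 with 1 tumour left out. The count in the region, 1, was 0 with windows of 0.5 Mb (27 unadjusted), 0 with 2 Mb (3 unadjusted) and 0 with normexp (7 unadjusted), and 0 to 23 with 1 tumour left out. R80 had 10 segments in its difference from V1 and 17 in that from V2, a pairing chosen after seeing the data. No paired analysis was possible because the labels of the resistant tumours on these arrays carry no replicate number. The RNA alternatives were not run.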
